A study of Mus musculus with 6 samples.

Results

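The genes described here handle glutamine, glutamate and creatine in the kidney. The 8 genes, out of 23276 gene symbols listed for these kidneys, were listed by name for their roles. The rule that lists them uses no measured value, but the genes were chosen with earlier results of these data known. They are *Slc38a3*, *Glud1* and *Glul* on the glutamine side and *Gatm*, *Gamt*, *Slc6a8*, *Ckb* and *Ckmt1* on the creatine side. All 8 were listed, in 20 transcripts, of which 11 carried a RefSeq identifier and 9 had been assembled from the reads.

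Total RNA came from whole kidneys of 6 mice at postnatal day 22 by the labels, in 2 groups of 3. The SKO group had the genotype KspCre; *Pkd1* F/RC, that is, a hypomorphic RC allele of the polycystin gene *Pkd1* in the germline and a floxed *Pkd1* allele recombined by Cre. The DKO group had the same *Pkd1* alleles and the same Cre, together with a floxed miR-17~92 cluster on both chromosomes. The Ksp promoter drives Cre in kidney tubule epithelium, so neither the *Pkd1* deletion nor that of the cluster covers vessels, stroma or immune cells, and all 6 kidneys carried mutant *Pkd1*. The levels below are the authors' means over the kidneys of both groups, in CPM (counts scaled to library size), and carry no SD because the values of single kidneys were not analysed here. The depth of each library is unknown, the DKO and SKO kidneys are not compared, and the order of genes with close levels is not resolved.

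Kidney tubules take up glutamine, remove its nitrogen in mitochondria as ammonium and pass the carbon on to glucose synthesis, which allows the kidney to excrete acid. Cells of the proximal tubule carry out most of this work, and glutamine synthetase runs the opposite reaction, binding ammonium into glutamine. The kidney is also the main site of the opening step of creatine synthesis, in which the amidino group of arginine is moved to glycine. The guanidinoacetate so formed is methylated to creatine mainly in the liver, and creatine kinases use creatine to buffer ATP.

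For each miRNA of the cluster floxed in the DKO mice, the arm commonly taken as the guide strand is shown. The seed of that arm was used to search the 8 genes. The opposite arms of the hairpins are not shown and were not searched for. The mature sequences from RefSeq (GRCm38.p6, the same assembly as mm10) lie on the forward strand of chromosome 14 and are printed with the seed, bases 2 to 8, in capitals. The 6 arms shown fall into 4 groups by seed, that of miR-17 with miR-20a, that of miR-18a, that of miR-19a with miR-19b, and that of miR-92a.
miR-17-5p: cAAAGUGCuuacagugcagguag
miR-20a-5p: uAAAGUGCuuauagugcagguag
miR-18a-5p: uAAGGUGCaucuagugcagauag
miR-19a-3p: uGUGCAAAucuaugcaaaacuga
miR-19b-3p: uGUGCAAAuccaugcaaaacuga
miR-92a-3p: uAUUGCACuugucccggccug

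The 3′-UTRs of the GENCODE transcripts matched to the RefSeq entries were searched on the transcript strand for the 7 bases complementary to each seed. These were GCACTTT for miR-17 and miR-20a, GCACCTT for miR-18a, TTTGCAC for miR-19a and miR-19b, and GTGCAAT for miR-92a. Among the 8 genes, 2 held a match, each a single one, and 6 held none. A match to any of the 4 was held by 26.4% of the 18912 genes with a 3′-UTR. The matches are printed below within 30 bases of transcript sequence, with the matched letters in capitals.
*Glud1*, miR-17 and miR-20a: tgtgatttctgGCACTTTttgtttgaaaca
*Slc6a8*, miR-19a and miR-19b: gaggcttatatTTTGCACattttataagaa
The match in *Glud1* lay at positions 1387 to 1393 of a 3′-UTR of 1542 bases (mm10 chr14:34345110-34345116, forward strand). Of 2643 other 3′-UTRs of 80% to 125% of that length, 14% held the same 7 bases. The match in *Slc6a8* lay at positions 713 to 719 of a 3′-UTR of 1402 bases (mm10 chrX:73681813-73681819, forward strand), and 12.9% of 2623 3′-UTRs of like length held it. The 3′-UTRs of *Gamt*, *Ckb* and *Ckmt1* were short, at 166, 202 and 123 bases, against a median of 786 over all genes. A match is a string of letters and was not examined as a binding site.

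The uptake and breakdown of glutamine were represented by *Slc38a3* and *Glud1*. *Slc38a3* encodes SNAT3, a glutamine transporter of the basolateral membrane of proximal tubule cells. Its 3 RefSeq transcripts, NM_023805, NM_001199217 and NM_001199218, had means of 26.11, 26.05 and 26.03 CPM. Their coding sequences have the same length, 1515 bases, and they lie on the reverse strand of chromosome 9, where the gene spans 107650634 to 107669530 in mm10. *Glud1*, the mitochondrial enzyme that oxidises glutamate to 2-oxoglutarate and releases ammonium, had a mean of 200.2 CPM for NM_008133 and 200.8 CPM for its assembled transcript. It lies on the forward strand of chromosome 14 from 34310727 to 34345265, and NM_008133 has 13 exons and 3390 bases in the annotation.

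*Glul* encodes glutamine synthetase, which consumes ammonium and glutamate. Its RefSeq transcript NM_008131 had a mean of 449.9 CPM and its assembled transcript 450.1 CPM, so that *Glul* stood close to the most abundant of the 8 genes. The gene lies on the forward strand of chromosome 1 from 153899944 to 153909723.

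The opening step of creatine synthesis was the most abundant of the creatine genes. *Gatm*, the arginine:glycine amidinotransferase of the mitochondrial intermembrane space, had a mean of 468.3 CPM for NM_025961. Its assembled transcript had 381.1 CPM, lower by 0.30 on the log2 scale. *Gatm* lies on the reverse strand of chromosome 2 from 122594467 to 122611303. *Gamt*, which methylates guanidinoacetate to creatine, was the least abundant of the 8, with a mean of 4.108 CPM for NM_010255 and 1.837 CPM for its assembled transcript, a gap of 1.16 on the log2 scale. It lies on the reverse strand of chromosome 10 from 80258151 to 80261012.

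Creatine uptake and creatine kinases lay between these. *Slc6a8*, the sodium- and chloride-dependent creatine transporter on the X chromosome, had 4 transcripts with means from 57.45 to 58.45 CPM. *Ckb*, the cytosolic brain-type creatine kinase, had a mean of 46.91 CPM for both NM_021273 and its assembled transcript. *Ckmt1*, the ubiquitous mitochondrial creatine kinase, had a mean of 27.9 CPM for NM_009897 and of 28.11 and 27.97 CPM for its assembled transcripts.

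**Figure D1:**
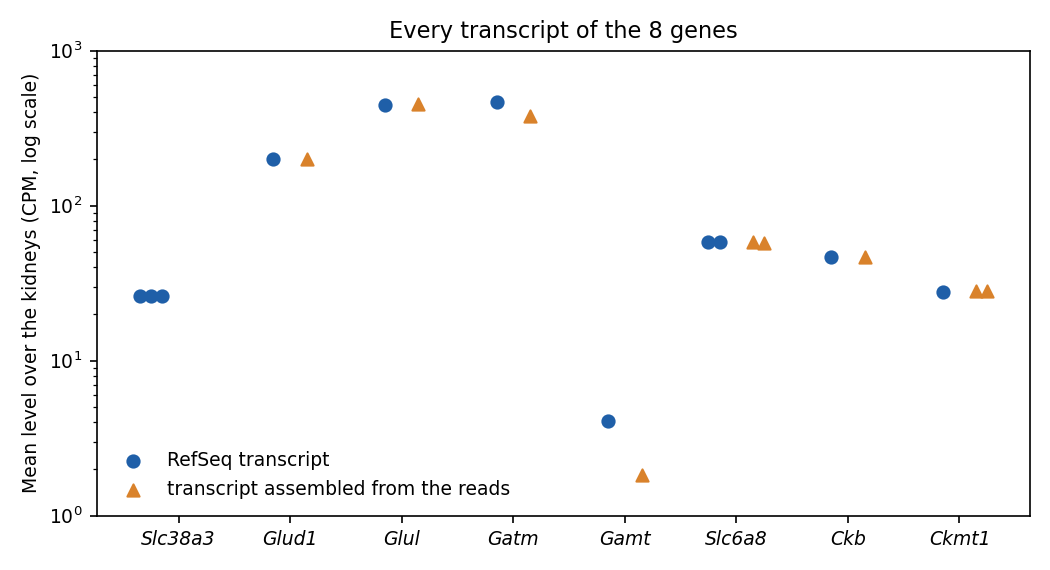
Mean level of every transcript of the 8 genes, in CPM on a log scale, with circles for RefSeq transcripts and triangles for transcripts assembled from the reads. Each point is the authors' mean over the kidneys and has no error bar. The points of a gene coincide except in *Gatm* (468.3 and 381.1 CPM) and *Gamt* (4.108 and 1.837 CPM).

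For 6 of the 8 genes the transcripts of a gene differed by less than 0.05 on the log2 scale, and *Gatm* and *Gamt* were the exceptions. Over all 8470 genes with several transcripts and a mean of at least 1 CPM, 36.4% had transcripts within that range, and the median range was 0.16. The CPM of all 54721 transcripts summed to 1007270. The highest transcript of each gene was used here as its level, without adding its transcripts together. How reads overlapping several transcripts were assigned is not given in the sources used here.

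CPM favours long transcripts, so genes were set against each other after division of the highest matched RefSeq transcript by its length, in CPM per kilobase. On that scale *Gatm* came highest of the 8 with 196.0 CPM per kilobase and *Glul* next with 161.1. *Glud1* followed with 59.05 and *Ckb* with 31.87 CPM per kilobase. *Slc6a8* and *Ckmt1* were nearly equal at 17.64 and 17.22 CPM per kilobase. *Slc38a3* had 10.1 and *Gamt* 4.158 CPM per kilobase. No spread between kidneys is known for these levels, so neighbours in this order cannot be told apart, and the gaps between *Gatm* and *Glul* (1.22 times) and between *Slc6a8* and *Ckmt1* (1.02 times) were the smallest. With the shortest annotated coding transcript of each gene as its length, *Glul* and *Glud1* stood above *Gatm*, at 10.21 and 8.86 against 7.61 log2 CPM per kilobase. Those shortest transcripts, of 379 bases for *Glul* and 432 for *Glud1*, are shorter than the coding sequences of NM_008131 and NM_008133, 1119 and 1674 bases.

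The level per kilobase of *Gatm* was 47.1 times that of *Gamt*. That of *Glul* was 2.73 times that of *Glud1*, and that of *Ckb* was 1.85 times that of *Ckmt1*. The direction between *Ckb* and *Ckmt1* turned with the length used, to 4.05 against 4.11 log2 CPM per kilobase with the longest annotated transcript of each gene and to 4.99 against 5.63 with the shortest coding one. That shortest transcript of *Ckmt1*, of 565 bases, is shorter than the coding sequence of NM_009897, 1254 bases.

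**Figure D2:**
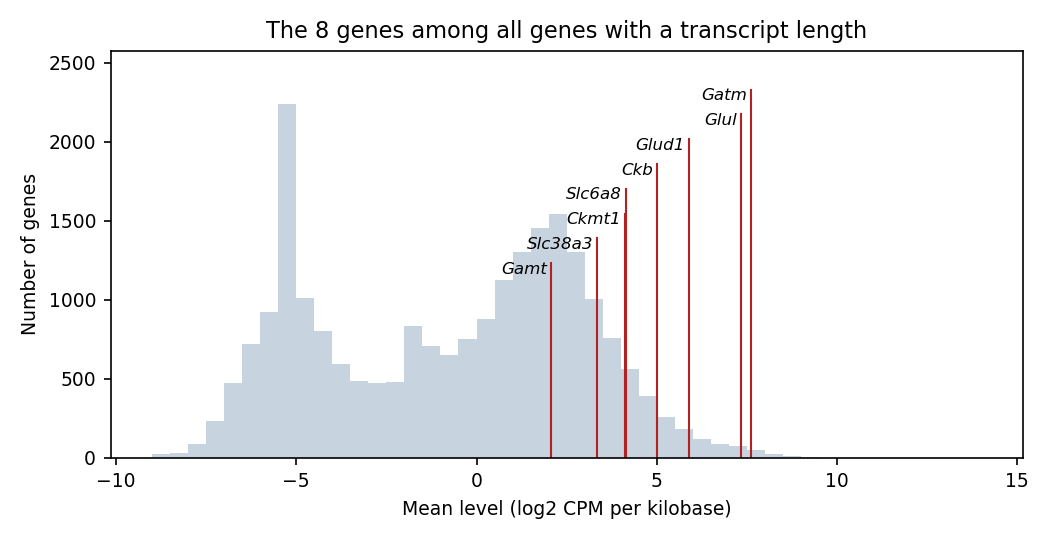
Number of genes by mean level in log2 CPM per kilobase, over the 22662 genes with a transcript length, with red lines at the 8 genes. *Gamt* (2.06) and *Slc38a3* (3.34) stand to the left of the other 6, and *Glul* (7.33) and *Gatm* (7.61) lie in the far right tail.

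Among the 22662 genes with a transcript length, the 8 genes had a median of 24.8 CPM per kilobase and all genes a median of 0.919. More than 90% of genes had a lower level per kilobase than each of *Gatm*, *Glul*, *Glud1*, *Ckb*, *Slc6a8* and *Ckmt1*, 6 of the 8. *Gatm* stood above 99.64% of genes and *Glul* above 99.48%. *Glud1* stood above 98.16%, *Ckb* above 96.36%, *Slc6a8* above 92.98% and *Ckmt1* above 92.79% of genes. *Slc38a3* stood above 87.57% and *Gamt* above 72.50% of genes. Only 12736 of these genes reached a mean of 1 CPM, and against those alone *Slc6a8* and *Ckmt1* stood above 87.52% and 87.18%, no longer past 90%, *Slc38a3* above 77.88% and *Gamt* above 51.22%.

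The other genes of the same pathways had been listed by name, 21 in all, and 11 of them also stood above 90% of genes. The liver-type glutaminase *Gls2* was low, at 0.0742 CPM per kilobase. *Slc38a3* was not the most abundant glutamine carrier by this measure, since *Slc7a8*, a basolateral exchanger of neutral amino acids, had 22.8 and *Slc38a2*, a widely expressed glutamine transporter, 16.6 CPM per kilobase. *Slc1a5*, another glutamine exchanger, had 8.64 CPM per kilobase.

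The mitochondrial aspartate aminotransferase *Got2* had 59.3 CPM per kilobase, next to *Glud1*, and its cytosolic counterpart *Got1* had 17.8. The alanine aminotransferases *Gpt* and *Gpt2* were lower, at 1.85 and 3.95 CPM per kilobase. *Pck1*, the phosphoenolpyruvate carboxykinase that carries the carbon of glutamine towards glucose, had the highest level of the ammonia genes listed, 279.0 CPM per kilobase and 4.72 times that of *Glud1*. Of the ammonia transport proteins of the distal nephron and collecting duct, *Rhcg* had 24.5 and *Rhbg* 6.56 CPM per kilobase. The sodium-proton exchanger *Slc9a3* and the sodium bicarbonate cotransporter *Slc4a4*, both of the proximal tubule, had 10.5 and 41.6 CPM per kilobase. The highest transcript of *Slc9a3* had 57.4 CPM, but its level per kilobase rests on a matched RefSeq transcript with a lower CPM. The mitochondrial glutamate carrier *Slc25a22* had 2.29, and *Asns*, the asparagine synthetase that uses glutamine as its nitrogen donor, had 1.4 CPM per kilobase.

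On the creatine side, *Ass1*, the argininosuccinate synthetase that starts the renal synthesis of arginine from citrulline, had 176.3 CPM per kilobase, close to *Gatm*, and *Asl*, which completes it, had 18.3. The mitochondrial arginase *Arg2* had 12.7 CPM per kilobase. *Oat*, the ornithine aminotransferase, which uses the ornithine that the *Gatm* reaction leaves, had 62.1 CPM per kilobase. The muscle creatine kinases were near the floor of the table, with means of 0.0573 CPM for *Ckm* and 0.0292 CPM for *Ckmt2*. The lowest value listed was 0.0263 CPM, shared by 4617 transcripts, so a value near it does not show that a gene was expressed. *Ckb* and *Ckmt1* thus made up nearly all of the creatine kinase RNA listed.

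**Figure D3:**
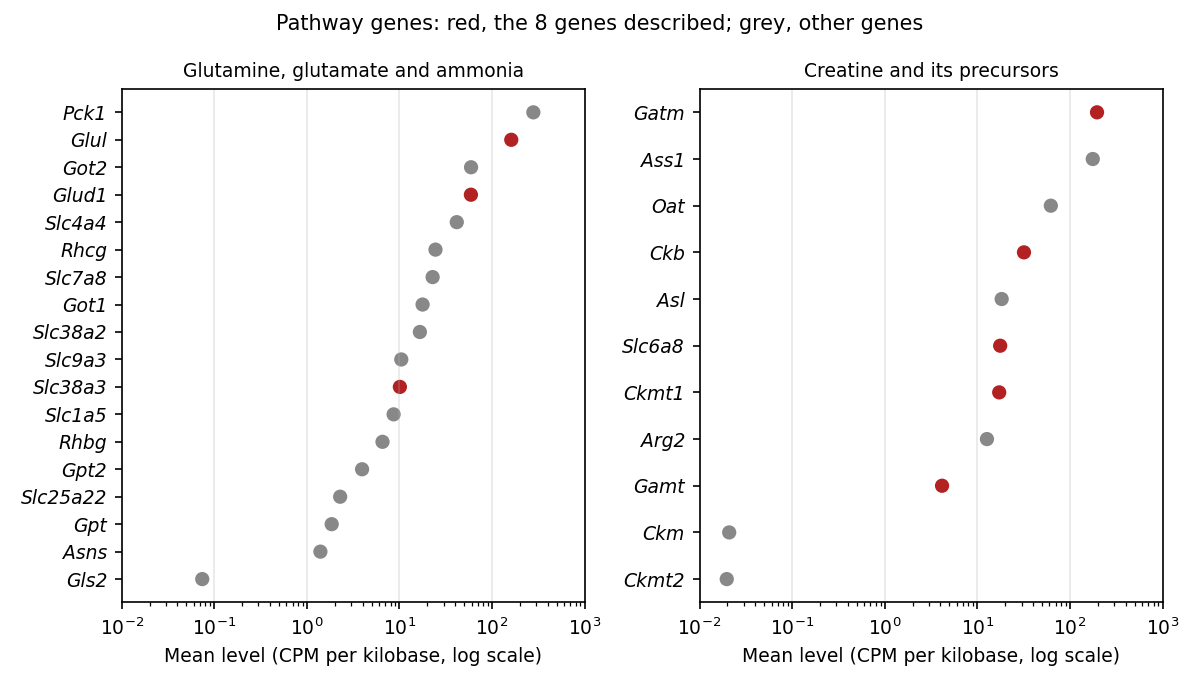
Mean level in CPM per kilobase, on a log scale, of the genes listed for glutamine, glutamate and ammonia (left) and for creatine and its precursors (right), with the 8 genes described in red and the other listed genes in grey. Points are the authors' means over the kidneys, without error bars. *Pck1* (279.0) and *Gatm* (196.0) top the panels, and *Gls2*, *Ckm* and *Ckmt2* lie below 0.1.

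Reads of 51 bases can fall on stretches that a gene shares with a copy elsewhere. Of the 51-base windows of the transcripts used, *Slc38a3*, *Gatm*, *Gamt*, *Slc6a8* and *Ckmt1* shared none with an annotated transcript of another gene. *Ckb* shared 21.3% of its 1422 windows, almost all of them with the processed pseudogene Gm12892. *Glul* shared 14.6% of 2742 windows, mostly with the processed pseudogene Glns-ps1. Another processed pseudogene, AC134576.3, shared 74 windows with *Glul*. *Glud1* shared 8.05% of 3340 windows, with the processed pseudogene Glud-ps and with Gm43444. Of the windows of *Glul*, 43 were shared with *Mir8114* and 66 with a *Teddm2* transcript, genes that overlap *Glul* itself. Reads from windows shared with a copy elsewhere map to several places, and alignments of low mapping quality had been discarded by the authors. The levels of *Ckb*, *Glul* and *Glud1* are therefore uncertain, by an amount that was not measured. Only exact matches to annotated transcripts were counted, so near-identical or unannotated copies were not covered for any of the 8 genes. On the opposite strand, exons of *Teddm2* covered 4.15% of the exon bases of *Glul* and those of *Strc* 0.617% of those of *Ckmt1*. The libraries were strand-specific, but the strand setting used for counting is not given in the sources used here.

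The tissue label was checked against marker genes. Of the proximal tubule, *Slc34a1*, *Lrp2*, *Cubn*, *Slc5a2* and *Slc22a6* all had means above 1 CPM, from 11.4 CPM per kilobase for *Cubn* to 423.1 for *Slc34a1*. *Umod* and *Slc12a1* of the thick ascending limb had 374.4 and 132.5 CPM per kilobase, and *Slc12a3*, *Aqp2*, *Aqp3* and *Atp6v1b1* of the distal nephron ranged from 34.6 to 52.2. The podocyte, endothelial and macrophage markers *Nphs1*, *Pecam1*, *Kdr*, *Adgre1* and *Csf1r* had 1.39 to 16.1 CPM per kilobase, and *Pecam1*, the highest of them, stood above *Cubn*. Those of skeletal muscle (*Ckm*, *Acta1*, *Myh4*), pancreas (*Cpa1*, *Prss1*) and brain (*Snap25*, *Gfap*) were all below 1 CPM, whereas of the liver genes *Alb* had 13.4 and *Apoa1* 1.4 CPM. In whole kidney RNA, the share of a cell type and the RNA of a gene in each of its cells cannot be told apart. The genes altered by design, *Pkd1* and the cluster's host transcript *Mir17hg*, had means of 31.8 and 4.21 CPM over the kidneys of both groups. A mean over both groups does not show whether either gene was lowered, so the genotype labels could not be checked by it.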

How the data were processed

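RNA of 6 mouse kidneys, 3 SKO and 3 DKO, had been sequenced by the authors as 51 bp single-end strand-specific reads, trimmed and mapped to mm10 with TopHat 2.0.12 and the iGenomes annotation. The submitters' processing notes also name Cufflinks, Subread 1.4.6 with featureCounts, and edgeR 3.2.4. The deposited log2 values are the average log2 CPM that edgeR writes for each of 54721 transcripts over the libraries. The normalization settings, and any small count added before the log2 was taken, are not given in the sources used here. The other 4 numeric columns hold the authors' own comparison of the groups (log2 fold change, likelihood ratio statistic, p-value and adjusted p-value) and were not used. No value of a single kidney was at hand, so the planned edgeR quasi-likelihood test on counts could not be run, no groups were compared, and depth and spread between mice are unknown here.

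Rows were matched to genes by symbol. A gene's level was its highest transcript, and its level per kilobase used the highest RefSeq transcript, divided by the length of the longest GENCODE M21 transcript listed for that RefSeq entry (22662 of 23276 symbols). *Adgre1* was found under an older symbol. Percentiles are shares of genes with a lower level per kilobase. The percentile step and the seed search were checked on small made-up inputs with known answers. Python 3.11.15, numpy 2.4.6 and matplotlib 3.10.9 were used. The genes and lists were chosen with earlier results of these data known. Of the listed genes, 2 are not reported here.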

Additional observations from a re-analysis of the deposited data

How the results depend on the processing

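No group was compared and no test was run, so the alternatives bear on levels only, and no value for a single kidney was at hand to leave out a replicate, to set another normalization or filter, or to run DESeq2. Each of these was therefore not run. No paired analysis was possible because single kidneys have no values here. The median log2 level of the 8 genes was 5.71 log2 CPM, also with RefSeq transcripts alone, and 7.21 when all transcripts of a gene were summed, a sum that would count a read more than once if overlapping transcripts share it, which was not tested. With that sum *Glul* stood above *Gatm*, at 9.81 against 9.73 log2 CPM. The median level per kilobase was 4.57 log2 CPM per kilobase. It was 4.08 with the longest annotated transcript of each gene and 6.20 with the shortest coding transcript, which is as short as 379 bases for *Glul*. With the longest transcript *Ckmt1* stood above *Ckb*. With the shortest, *Glul* and *Glud1* stood above *Gatm*, and *Ckb* fell behind *Slc6a8*, *Ckmt1* and *Slc38a3*, whereas *Gamt* stayed lowest of the 8 under both. The median percentile was 94.7 among all genes with a length and 90.5 among those with a mean of at least 1 CPM.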
